A study of Mus musculus with 9 samples.

Results

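The spermatogonial differentiation genes described here are 10 genes listed by name for their role in spermatogonia: Kit, Stra8, Sohlh1, Sohlh2, Dmrt1, Dmrtb1, Taf7l, Ngn3 (symbol Neurog3), Lin28a and Uchl1. Of these 10 genes, 9 had a locus of their own among the 15947 genes that could be named in a table of 54913 loci, and each gene was taken at the locus of highest mean over the 9 libraries. RNA-seq had been made from 3 groups of 3 libraries: primary spermatogonial stem cells (SSC), induced pluripotent stem cells made from SSC (SSCiPSC), and induced pluripotent stem cells made from male fetal fibroblasts (fiPSC). SSC were Gfra1+ cells taken by magnetic sorting from testes at postnatal day 6 and were at passage 0. Both kinds of iPSC were clonal lines, labelled passage 10 to 11 while the study's methods give passage 13 to 14. Per the methods, iPSC were sorted magnetically for SSEA1 to limit feeder cells, so SSC and iPSC were sorted for different markers.

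All 3 groups, SSC included, came from 1 strain with a pair of alleles. Gt(ROSA)26Sortm1(rtTA*M2)Jae gives rtTA from the Rosa26 locus, and Col1a1tm3(tetO-Pou5f1,-Sox2,-Klf4,-Myc)Jae gives Oct4 (Pou5f1), Sox2, Klf4 and c-Myc when doxycycline is present. The labels give a medium with LIF and doxycycline, and the methods say that doxycycline was withdrawn after passage 8, so whether the transgenes were on at collection cannot be told here. The study calls its libraries biological samples, but the labels do not tie the 3 libraries of a group to separate animals or lines, so a p-value measures the spread between these libraries only. Fetal fibroblasts themselves were not analysed here.

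As background, a spermatogonial stem cell either renews itself, kept by GDNF from Sertoli cells acting on GFRA1 and RET, or moves through undifferentiated stages until a pulse of retinoic acid turns it into a differentiating spermatogonium. That step is marked by the receptor KIT, which reads KIT ligand from Sertoli cells, and by STRA8, while SOHLH1 and SOHLH2 push differentiation and DMRT1 and DMRTB1 decide between mitosis and meiosis. NEUROG3 and LIN28A belong to the undifferentiated, transit-amplifying stage, UCHL1 is used to identify spermatogonia, and TAF7L is a germ cell version of a general transcription factor subunit. Pluripotent cells express some of the same genes, LIN28A and KIT among them.

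Levels are FPKM, the fragments of a locus per kilobase of exon, scaled to the mapped fragments of the library. Because an FPKM value at low level is a whole multiple of what 1 fragment is worth, depth could be estimated. The fragments of SSC replicates 1, 2 and 3 came to 9.99%, 26.1% and 7.81% of those of the deepest library, fiPSC replicate 2, and those of the other 5 iPSC libraries to 75.3% to 89.5%. On a kilobase of exon 1 fragment is worth 0.568, 0.217 and 0.726 FPKM in the SSC libraries and no more than 0.0752 FPKM in any iPSC library. SSC replicate 1 listed 30.0% of all loci at 0, SSC replicate 2 listed 18.9% and SSC replicate 3 listed 35.4%, against 9.64% to 13.9% in iPSC. A low value in SSC is therefore less certain than the same value in iPSC, and SSC replicate 2 is the most precise of the 3.

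Differences between groups are given as a log2 fold change of FPKM + 1 with its standard error (SE), a scale that understates the change of low genes. They come from limma, fitted to the 6 libraries of each pair of groups. Loci that reached 1 FPKM in 3 or more of these entered, p-values were adjusted over all such loci (Benjamini-Hochberg), and an adjusted p below 0.05 is called a rise or a fall. In SSCiPSC against SSC 50.3% of 36544 loci passed (26.2% higher and 24.1% lower in SSCiPSC), and in fiPSC against SSC 51.8% of 38007 loci did (28.0% higher and 23.7% lower in fiPSC). The balance of higher and lower loci depended on the scaling: in SSCiPSC 9582 were higher and 8814 lower, but 8667 and 9593 with median-ratio scaling and 8861 and 9187 with quantile normalization. In fiPSC 10658 were higher and 9022 lower, but 9690 and 9925 with quantile normalization. In fiPSC against SSCiPSC 0.0678% of 33948 loci passed. Against SSC larger shares passed at 1 locus per named gene, which is how each gene is taken below. In SSCiPSC 7994 of 12624 then passed (4531 higher and 3463 lower, median log2 fold change 0.24). For fiPSC these were 8403 of 12801 (4738 higher and 3665 lower, median 0.22). The first 2 comparisons share their SSC libraries, so their results are set side by side and are not separate evidence. An exact two-sided permutation test of 3 libraries against 3 cannot go below p = 0.1, and p = 0.1 is what it gave wherever groups did not overlap.

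The label of the SSC libraries was checked first. Gfra1, the GDNF receptor used for the sort, was at 37.7, 34.1 and 23.9 FPKM in SSC and at no more than 0.171 FPKM in any iPSC library. Zbtb16, a zinc finger factor of undifferentiated spermatogonia, was at 72.0, 77.4 and 51.9 FPKM in SSC and at no more than 0.157 FPKM in iPSC. Both stood apart from iPSC in every library. Of the 10 undifferentiated markers with a locus (12 listed), 7 were lower and 3, Etv5, Cdh1 and Eomes, were higher in SSCiPSC than in SSC. Over all loci tested 24.1% were lower and 26.2% higher. At 1 locus per named gene 3463 of 12624 were lower and 4531 higher. Gfra1, Ret, Zbtb16 and Lhx1 among the 7 passed the filter on low values through the SSC libraries only and so had to be lower, and the count is a description. Nanog, a gene of pluripotent cells, was listed at 0 in all 3 SSC libraries, whereas it was at 426 to 483 FPKM in SSCiPSC and at 270 to 295 FPKM in fiPSC.

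SSC also held RNA of other testis cells. Of the Sertoli list, 10 of 12 genes had a locus, and their summed level was 1463, 1502 and 1196 FPKM in SSC, led by Clu at 713, 645 and 538 FPKM. Sox9, the Sertoli cell determinant, was at 53.8, 60.4 and 51.7 FPKM in SSC, and Sox9, Fshr, Cst12 and Defb19 were at 0 in every iPSC library. The Sox9 locus is only 326 bases long, and its SSC values stand for about 16, 48 and 12 fragments. The Sertoli sum differed little between the SSC libraries, but single markers did, such as Cldn11 at 51.1, 42.0 and 18.6 FPKM and Dhh at 9.0, 21.3 and 10.8 FPKM. Rhox5 alone of the Sertoli list was higher in iPSC, at 162 to 296 FPKM against 1.03 to 1.98 FPKM in SSC.

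Leydig markers (6 of 8 genes with a locus) summed to 933, 580 and 1024 FPKM in SSC, led by Star at 745, 401 and 759 FPKM, with Lhcgr, Hsd17b3 and Nr5a1 at 0 in every iPSC library. The loci of Star and Hsd17b3 are only 157 and 228 bases long, so 1 fragment makes a large FPKM there and Star rests on about 3, 4 and 2 fragments in SSC. The other 4 Leydig markers summed to 164, 132 and 255 FPKM in SSC and to no more than 0.358 FPKM in iPSC. Mast cell markers (7 of 9) summed to 116, 446 and 1233 FPKM in SSC, led by the tryptase Tpsab1 at 50.3, 163 and 487 FPKM, and Tpsab1, Tpsb2, Mcpt4 and Mrgprb1 were at 0 in every iPSC library. Macrophage markers (7 of 8) summed to 56.9, 20.7 and 172 FPKM and fibroblast markers (8 of 8) to 134, 121 and 366 FPKM in SSC. Replicate 3 held the most mast cell and macrophage RNA of the SSC libraries, and replicate 2 the least macrophage RNA.

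Endothelial markers (6 of 6) summed to 122, 58.4 and 103 FPKM in SSC and to 85.2 to 128 FPKM in iPSC, where nearly all of it was Pecam1. Peritubular myoid markers (4 of 5) summed to 87.3, 80.6 and 69.4 FPKM in SSC and to 9.0 to 12.6 FPKM in iPSC, led by Acta2 in SSC. Germ line markers (8 of 10) summed to 602, 753 and 503 FPKM in SSC and to 86.3 to 154 FPKM in iPSC, led by Dazl in SSC. In a bulk library fewer cells of a type and less RNA per cell cannot be told apart. How far these other cells carry the genes below was not tested.

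**Figure D1:**
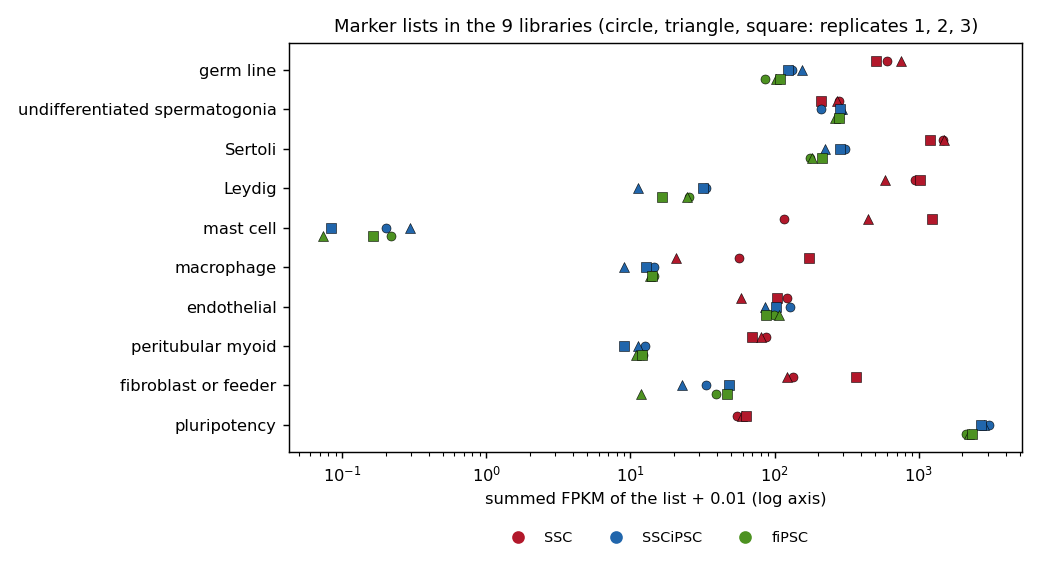
Summed FPKM of each marker list (log axis, 0.01 added) in the 9 libraries, with circles, triangles and squares for replicates 1, 2 and 3 of SSC (red), SSCiPSC (blue) and fiPSC (green). Mast cell markers spread from 116 to 1233 FPKM among the SSC libraries, while germ line markers stayed between 503 and 753 FPKM there.

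Among the 9 genes with a locus, Taf7l, Sohlh1, Dmrt1 and Uchl1 were lower in both kinds of iPSC than in SSC, Kit, Sohlh2 and Lin28a were higher, and Stra8 and Dmrtb1 did not pass. All 9 passed the filter on low values in both comparisons with SSC, but Sohlh1 passed through the SSC libraries only and so had to differ. The 7 of 9 genes called stand beside the 50.3% and 51.8% of all loci called. At 1 locus per named gene 7994 of 12624 and 8403 of 12801 were called. The count itself is therefore not a result about these genes. The same holds for groups that do not overlap, since 59.8% of loci had no overlap in SSCiPSC against SSC and 61.6% had none in fiPSC against SSC. What follows is each gene's own level, starting with the receptor and the gene that marks entry.

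**Figure D2:**
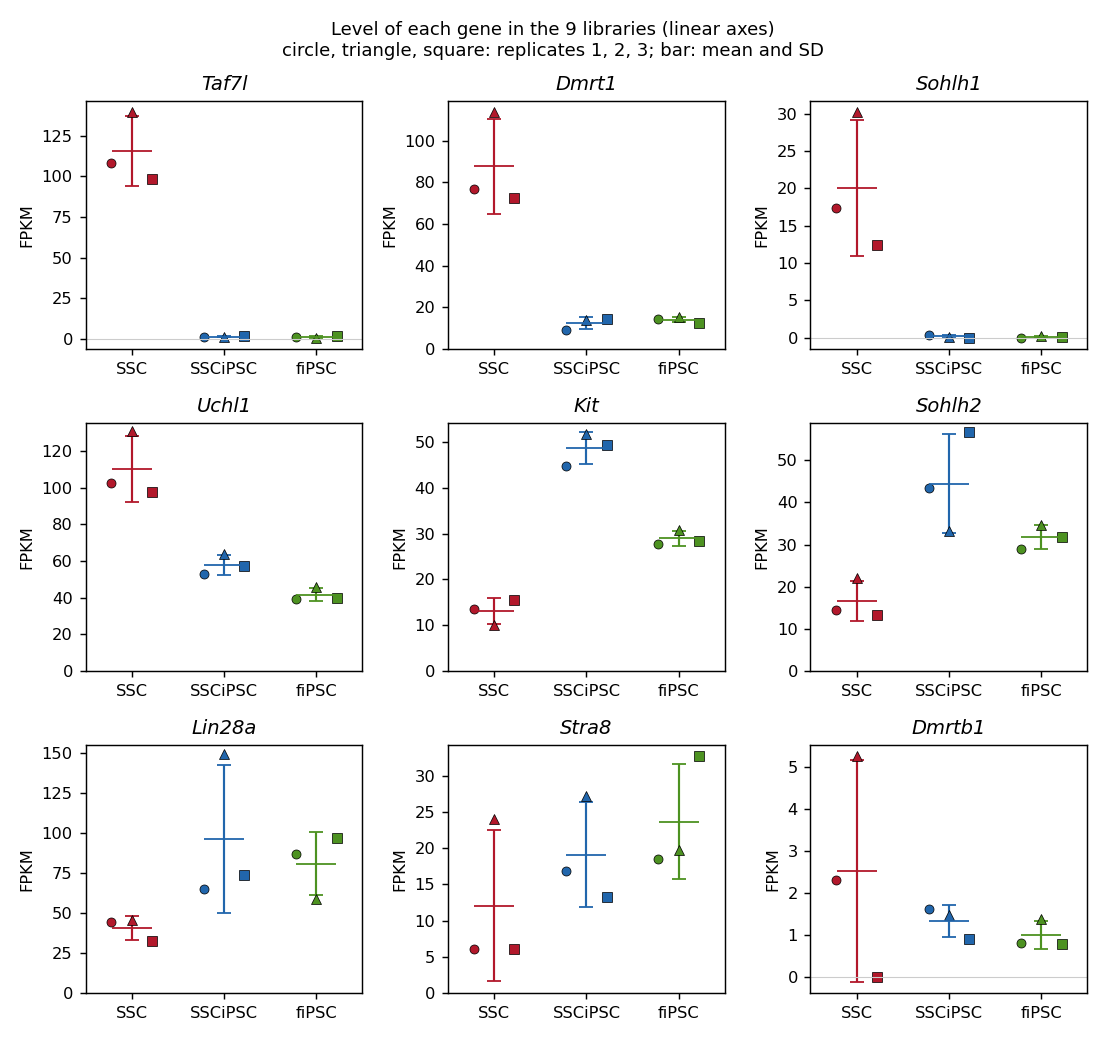
FPKM (linear axes) of the 9 genes in SSC, SSCiPSC and fiPSC, with circle, triangle and square for replicates 1, 2 and 3 and bars for the mean and SD of each group. Taf7l, Dmrt1, Sohlh1 and Uchl1 were highest in SSC, and Kit was lowest there, with its 3 groups apart.

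Kit encodes the receptor tyrosine kinase that marks differentiating spermatogonia. Its locus of highest mean lies inside the last of 21 exons (GRCm38 chr5:75655733-75656681, no strand in the table) and held 13.6, 10.1 and 15.6 FPKM in SSC replicates 1 to 3, 44.8, 51.8 and 49.2 FPKM in SSCiPSC and 27.7, 30.7 and 28.4 FPKM in fiPSC. SSCiPSC was highest, fiPSC intermediate and SSC lowest, with no overlap between any 2 groups. The means were 13.1 ± 2.75, 48.6 ± 3.51 and 28.9 ± 1.60 FPKM (SD, n = 3 each), which is 3.71 times the SSC level in SSCiPSC and 2.21 times in fiPSC. Kit rose by log2 1.83 (SE 0.18, adjusted p = 0.000457, limma) in SSCiPSC against SSC and by log2 1.11 (SE 0.17, adjusted p = 0.00248, limma) in fiPSC against SSC.

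In SSC the Kit locus in the last exon rests on about 19, 37 and 17 fragments. The rest of the gene forms a second locus on the plus strand (chr5:75574928-75655614), with 10.1, 10.1 and 8.86 FPKM in SSC, 42.4, 47.5 and 48.4 FPKM in SSCiPSC and 23.9, 27.8 and 26.0 FPKM in fiPSC. It gave the same order of the groups without overlap, with a log2 fold change of 2.14 (SE 0.14, adjusted p = 0.000128, limma) in SSCiPSC against SSC and 1.33 (SE 0.13, adjusted p = 0.000372, limma) in fiPSC against SSC. KIT is also known from mast cells and Leydig cells. SSC replicate 3, with the highest mast cell sum, had the highest Kit level in the last exon but the lowest in the rest of the gene, and the part of those cells in Kit was not tested.

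Between the iPSC the Kit level was 1.68 times as high in SSCiPSC as in fiPSC, a log2 fold change of -0.73 (SE 0.11) for fiPSC against SSCiPSC. With limma the unadjusted p was 0.000250 and the adjusted p 0.121, so Kit did not pass. Under the 15 other settings of the fit the adjusted p ran from 0.0748 to 0.545, and none passed. In that comparison 18.6% of loci had groups that did not overlap and 11.7% had an unadjusted p below 0.05.

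Stra8, the retinoic acid responsive gene needed to enter meiosis, lies on the plus strand of chromosome 6. Its locus (chr6:34920957-34933072), which holds exons 2 to 6 of 10, was at 6.06, 24.1 and 6.10 FPKM in SSC, 16.8, 27.3 and 13.3 FPKM in SSCiPSC and 18.5, 19.8 and 32.8 FPKM in fiPSC. SSC replicates 1 and 3 were below every iPSC library, and SSC replicate 2 was among them. Those SSC values stand for about 4, 42 and 3 fragments. Stra8 did not pass, with a log2 fold change of 0.84 (SE 0.55, adjusted p = 0.250, limma) in SSCiPSC and 1.15 (SE 0.54, adjusted p = 0.124, limma) in fiPSC against SSC.

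SSC replicate 2 decided that call. Without it Stra8 was higher in SSCiPSC by log2 1.45 (adjusted p = 0.0157, limma) and in fiPSC by log2 1.76 (adjusted p = 0.00506, limma), but the SSC libraries then left are the shallow ones. A second Stra8 locus lies downstream of it (chr6:34933230-34939394), with 9.39, 13.5 and 8.77 FPKM in SSC, 15.9, 23.5 and 11.0 FPKM in SSCiPSC and 18.7, 16.0 and 26.0 FPKM in fiPSC. There SSC replicate 2 was closer to the other SSC libraries. At that locus fiPSC was higher than SSC by log2 0.87 (SE 0.24, adjusted p = 0.0232, limma), and SSCiPSC differed by log2 0.59 (SE 0.31, adjusted p = 0.157, limma).

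Of the transcription factors, Sohlh1 had the clearest on and off pattern. Sohlh1 encodes a basic helix-loop-helix factor of spermatogonia and oocytes, and its locus (chr2:25843003-25847326, minus strand, all 8 exons) was at 17.4, 30.2 and 12.5 FPKM in SSC, 0.354, 0.136 and 0 FPKM in SSCiPSC and 0, 0.212 and 0.0540 FPKM in fiPSC. Every SSC library was far above every iPSC library, and the iPSC groups overlapped. SSC replicates stood for about 35, 157 and 19 fragments, whereas no iPSC library held more than about 6. Sohlh1 fell by 4.10 on the log2 scale (SE 0.36, adjusted p = 0.000299, limma) in SSCiPSC and fell by 4.19 (SE 0.35, adjusted p = 0.000240, limma) in fiPSC against SSC. It entered these tests through the SSC libraries only, so the filter fixed its direction and the p-values do not support the fall beyond the values above. With no filter on low values its adjusted p was 0.000433 and 0.000342 (limma), and with a pseudocount of 0.1 the fold changes were -6.42 and -6.80. It did not reach the filter in fiPSC against SSCiPSC and was not tested there.

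Sohlh2, the partner with which SOHLH1 pairs, went the other way. Its locus (chr3:55181854-55209938, plus strand, all 11 exons) was at 14.4, 22 and 13.3 FPKM in SSC, 43.5, 33.3 and 56.7 FPKM in SSCiPSC and 28.9, 34.7 and 31.7 FPKM in fiPSC. All iPSC libraries were above all SSC libraries, and SSCiPSC overlapped fiPSC. Sohlh2 rose by log2 1.37 (SE 0.27, adjusted p = 0.00572, limma) in SSCiPSC and by log2 0.93 (SE 0.21, adjusted p = 0.0101, limma) in fiPSC against SSC. In SSC the level of Sohlh1 in FPKM was near that of Sohlh2, with means of 20.1 ± 9.16 and 16.6 ± 4.75 FPKM (SD, n = 3), while in SSCiPSC the mean of Sohlh2 was 44.5 ± 11.7 FPKM and that of Sohlh1 0.163 ± 0.178 FPKM.

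Dmrt1, a DM domain factor that holds spermatogonia in mitosis and is also made by Sertoli cells, was the most abundant transcription factor of the set in SSC. Its locus (chr19:25505481-25604486, plus strand, all 5 exons) was at 76.8, 114 and 72.5 FPKM in SSC, 9.16, 13.9 and 14.4 FPKM in SSCiPSC and 14.5, 15.3 and 12.8 FPKM in fiPSC. Every SSC library was above every iPSC library, and the iPSC groups overlapped. The SSC mean of 87.7 ± 22.8 FPKM was 7.01 times that of SSCiPSC and 6.17 times that of fiPSC (n = 3 each). Dmrt1 fell by 2.71 on the log2 scale (SE 0.25, adjusted p = 0.000334, limma) in SSCiPSC and fell by 2.52 (SE 0.19, adjusted p = 0.000198, limma) in fiPSC. Unlike Sohlh1 it did not come near 0 in iPSC, where the fewest fragments in a library were about 316. Sertoli markers moved with it between groups, and their part in the SSC level of Dmrt1 was not tested.

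Dmrtb1, also called Dmrt6, encodes a DM domain factor that coordinates the switch from mitosis to meiosis. Its locus (chr4:107676299-107679379, minus strand) covers exons 3 and 4 of 4 and was at 2.29, 5.26 and 0 FPKM in SSC, 1.62, 1.47 and 0.885 FPKM in SSCiPSC and 0.811, 1.38 and 0.789 FPKM in fiPSC. SSC held both the highest and the lowest of the 9 values, and all groups overlapped. The SSC values stand for about 3, 18 and 0 fragments, and the 0 of replicate 3 allows up to 2.93 FPKM (3 fragments), which is above every iPSC value. The log2 fold change was -0.25 (SE 0.65, adjusted p = 0.777, limma) in SSCiPSC and -0.47 (SE 0.66, adjusted p = 0.580, limma) in fiPSC against SSC, and Dmrtb1 did not pass. Single SSC libraries moved these values: in fiPSC against SSC it was -1.20 (adjusted p = 0.0336, limma) and passed without SSC replicate 3, and 0.12 (adjusted p = 0.870, limma) without SSC replicate 2. In SSCiPSC against SSC it was 0.34 (adjusted p = 0.640, limma) without SSC replicate 2.

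Neurog3, the basic helix-loop-helix factor of transit-amplifying spermatogonia, had no locus of its own. Its coordinates fall in an interval shared with Fam241b (chr10:62108405-62134980). The plus-strand locus of that interval was at 0, 0.523 and 0.860 FPKM in SSC, 0.487, 0.347 and 0.127 FPKM in SSCiPSC and 0.969, 0.900 and 0.986 FPKM in fiPSC. No library reached 1 FPKM there, and these values are not a measurement of Neurog3 alone.

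Taf7l, an X-linked relative of Taf7 that serves in the TFIID complex of germ cells, had the highest mean of the set in SSC. Its locus (chrX:134460222-134476532, minus strand, all 13 exons) was at 108, 140 and 98.6 FPKM in SSC, 1.2, 0.808 and 1.71 FPKM in SSCiPSC and 0.778, 0.735 and 1.68 FPKM in fiPSC. SSC was above every iPSC library by a wide gap, and SSCiPSC overlapped fiPSC. The SSC mean of 115 ± 21.4 FPKM was 93.3 times that of SSCiPSC (1.24 ± 0.451 FPKM) and 109 times that of fiPSC (1.06 ± 0.531 FPKM; SD, n = 3 each). Taf7l fell by 5.71 on the log2 scale (SE 0.22, adjusted p = 3.53e-05, limma) in SSCiPSC and fell by 5.83 (SE 0.23, adjusted p = 3.42e-05, limma) in fiPSC. With a pseudocount of 0.1 these were -6.47 and -6.71, and after quantile normalization the value was -6.50 in fiPSC.

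The iPSC values of Taf7l were not at the limit of detection. About 17 to 44 fragments stood behind it in each iPSC library, while 3 fragments correspond to 0.102 to 0.135 FPKM. Another pair of loci without strand share the interval of Taf7l and were also higher in SSC, one of them at 34.8, 25.6 and 27.5 FPKM in SSC and 0 in all iPSC libraries but fiPSC replicate 3, which was at 0.614 FPKM.

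Sohlh1 and Taf7l fell the most of the set, and their promoters are shown here beside that of Sohlh2, which rose. The genes shown were thus chosen by their change, and whether a motif bears on that change was not tested. The sequences are from RefSeq, build GRCm38.p6, each with 250 bases before and 50 after the start, written 5′ to 3′ on the strand of the gene. Capitals mark CACGTG, an E-box that basic helix-loop-helix factors can bind, searched on both strands (it reads the same on each). The windows are chr2:25847199-25847498 (minus) for Sohlh1, chrX:134476441-134476740 (minus) for Taf7l and chr3:55181794-55182093 (plus) for Sohlh2.
Sohlh1: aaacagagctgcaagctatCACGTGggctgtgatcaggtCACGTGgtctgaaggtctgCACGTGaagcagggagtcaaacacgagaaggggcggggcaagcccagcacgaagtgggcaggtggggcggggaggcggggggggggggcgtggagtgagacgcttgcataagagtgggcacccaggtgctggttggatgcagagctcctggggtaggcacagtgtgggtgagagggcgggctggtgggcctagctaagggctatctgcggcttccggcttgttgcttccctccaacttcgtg
Taf7l: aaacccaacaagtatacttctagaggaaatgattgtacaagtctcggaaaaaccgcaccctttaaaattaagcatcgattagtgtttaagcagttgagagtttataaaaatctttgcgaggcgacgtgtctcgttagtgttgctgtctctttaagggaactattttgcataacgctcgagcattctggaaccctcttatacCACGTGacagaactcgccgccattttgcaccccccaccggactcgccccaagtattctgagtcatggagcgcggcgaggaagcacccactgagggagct
Sohlh2: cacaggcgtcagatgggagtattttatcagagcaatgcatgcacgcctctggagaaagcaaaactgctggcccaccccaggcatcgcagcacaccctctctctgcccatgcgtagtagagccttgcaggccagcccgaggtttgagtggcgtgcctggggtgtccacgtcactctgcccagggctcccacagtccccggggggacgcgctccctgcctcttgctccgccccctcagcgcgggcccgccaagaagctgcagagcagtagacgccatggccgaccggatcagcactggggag
The Sohlh1 window held CACGTG 3 times, with first bases at -231, -211 and -192 from the start, and the Taf7l window held it 1 time, at -49. The other 7 genes of the set with a RefSeq window held none. Among them were Uchl1, which also fell, Sohlh2, Kit and Lin28a, which rose, and Neurog3. Among 32851 promoter windows of the same length 7.15% held CACGTG. The looser E-box CANNTG, of which CACGTG is one form, was in 72.3% of them.

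AGGTCA, a motif that retinoic acid receptors can bind, was searched in the same windows, also on both strands. The Stra8 window held it 2 times, at -194 and -38 from the start, and the Sohlh1 window 1 time, overlapping the second CACGTG. Of all windows 16.3% held AGGTCA. A match is a description of the letters and not a bound site, and a window without one says nothing about the factor. Dmrt1, which fell as well, had no window in the table used.

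Lin28a, the RNA-binding protein that blocks maturation of let-7 and is shared by undifferentiated spermatogonia and pluripotent cells, was higher in iPSC. Its locus (chr4:134003997-134018908, minus strand) was at 44.3, 45.4 and 32.2 FPKM in SSC, 65.2, 149 and 73.8 FPKM in SSCiPSC and 86.8, 58.9 and 96.7 FPKM in fiPSC. All iPSC libraries were above all SSC libraries, with SSCiPSC replicate 2 far above the others, and the iPSC groups overlapped. Lin28a rose by log2 1.14 (SE 0.33, adjusted p = 0.0280, limma) in SSCiPSC and by log2 0.96 (SE 0.23, adjusted p = 0.0134, limma) in fiPSC against SSC. It was the least firm of the 7 calls, passing under 11 of 15 other settings in SSCiPSC and 12 of 15 in fiPSC, with log2 0.51 (adjusted p = 0.183, limma) in SSCiPSC and 0.44 (adjusted p = 0.113, limma) in fiPSC after quantile normalization.

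Uchl1, a ubiquitin hydrolase used to identify spermatogonia and neurons, was lower in iPSC but stayed well expressed. Its locus (chr5:66676084-66687315, plus strand, all 9 exons) was at 102, 131 and 97.5 FPKM in SSC, 52.8, 63.8 and 57.0 FPKM in SSCiPSC and 39.3, 45.8 and 39.7 FPKM in fiPSC. The 3 groups stood in the order SSC, SSCiPSC, fiPSC without overlap. Uchl1 fell by 0.91 on the log2 scale (SE 0.16, adjusted p = 0.00351, limma) in SSCiPSC and fell by 1.38 (SE 0.14, adjusted p = 0.000505, limma) in fiPSC against SSC. After quantile normalization the values were -1.69 and -2.01. In fiPSC against SSCiPSC it differed by log2 -0.47 (SE 0.12, unadjusted p = 0.00581, adjusted p = 0.258, limma) and did not pass.

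**Figure D3:**
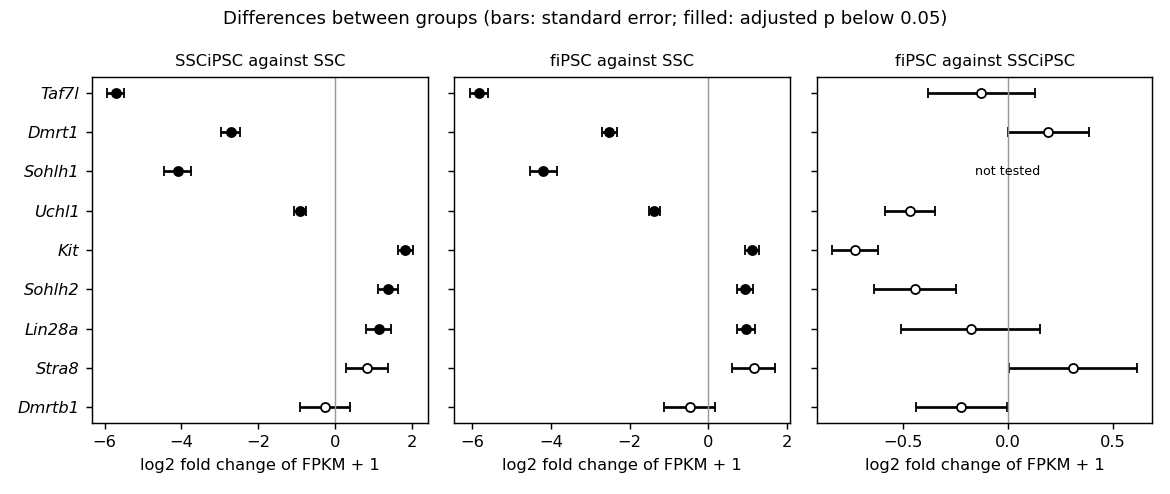
Log2 fold change of FPKM + 1 for the 9 genes in the 3 comparisons, with bars for the standard error and filled points for an adjusted p below 0.05 (the horizontal ranges differ between panels). Of the points for SSCiPSC and fiPSC against SSC, those of Stra8 and Dmrtb1 are open, and in fiPSC against SSCiPSC all 8 points are open, with Kit at -0.73 and Uchl1 at -0.47.

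Between fiPSC and SSCiPSC, 8 genes were tested and none passed with limma, while 2 of 8, Kit and Uchl1, had an unadjusted p below 0.05, beside 11.7% of all loci. In these 2 genes the groups did not overlap, and both were lower in fiPSC. Of all loci 9.23% were lower in fiPSC without overlap. For Sohlh2 the log2 fold change was -0.44 (adjusted p = 0.438, limma), and for the other 5 the adjusted p ran from 0.737 to 0.889. A p above the threshold does not show that the levels were alike.

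The SSC libraries differed among themselves, and most of these genes were highest in the same one. How often each SSC library was highest or lowest over all loci was not counted. The counts here are therefore a description and not a result about the set. SSC replicate 2 held the highest SSC value for 8 of the 9 genes, all but Kit, and SSC replicate 3 the lowest for 7. For the other differentiation genes listed below, replicate 2 was highest for 11 of 14 and replicate 3 lowest for 9 of 14. For the relatives and partners listed below these were 10 of 16 and 10 of 16. Among germ line markers replicate 2 was highest for 6 of 8 and replicate 3 lowest for 8 of 8, and among Sertoli markers these were 5 of 10 and 6 of 10. Markers of undifferentiated spermatogonia were highest in replicate 1 for 6 of 10 and in replicate 2 for 4 of 10, with replicate 3 lowest for 8 of 10. Mast cell markers were highest in replicate 3 for 7 of 7, and macrophage markers were lowest in replicate 2 for 7 of 7. The part of these other cells in the spread of the 9 genes was not tested.

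Of 16 other genes of spermatogonial differentiation, 14 had a locus, and Utf1 and Sycp3 were not analysed here. In SSCiPSC against SSC 3 were higher, 7 lower and 4 did not pass, with a median log2 fold change of -0.49, beside 26.2% higher, 24.1% lower and a median of 0.11 over all loci tested. At 1 locus per named gene 4531 of 12624 were higher and 3463 lower, with a median of 0.24. In fiPSC against SSC 5 were higher, 7 lower and 2 did not pass, with a median of -0.38, beside 28.0% higher, 23.7% lower and a median of 0.17. At 1 locus per named gene 4738 of 12801 were higher and 3665 lower, with a median of 0.22. Kitl in both, and Sox3 in SSCiPSC, passed the filter through the SSC libraries only and so had to be lower. In fiPSC against SSCiPSC 0 of 13 tested passed with limma, and 3 of 13 had an unadjusted p below 0.05, beside 11.7% of all loci.

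Kitl, the ligand of KIT made by Sertoli cells, was at 55.3, 58.8 and 69.9 FPKM in SSC and at no more than 0.678 FPKM in any iPSC library. Ligand and receptor thus stood at opposite ends, since Kit was highest in SSCiPSC. Kitl fell by 5.65 on the log2 scale (SE 0.19) in SSCiPSC and fell by 5.38 in fiPSC. Sertoli and Leydig markers were high in the same SSC libraries, and their part in Kitl was not tested.

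Sox3, an X-linked factor of committed spermatogonia, was at 32.1, 57.3 and 27.3 FPKM in SSC, 0 in all 3 SSCiPSC libraries and 1.37, 1.01 and 5.0 FPKM in fiPSC. Its locus is only 205 bases long, so these values stand for about 3, 13 and 2 fragments in SSC and for about 1, 1 and 4 in fiPSC. A value of 0 there allows up to 3.8 to 4.35 FPKM in SSCiPSC, which is above fiPSC replicates 1 and 2 but below fiPSC replicate 3. In fiPSC against SSCiPSC Sox3 did not overlap but did not pass (log2 1.61, SE 0.40, adjusted p = 0.246, limma). It entered that test through the fiPSC libraries only, so its direction was fixed there. Ccnd2, a D-type cyclin, was at 33.5, 34.7 and 33.9 FPKM in SSC and at 0.525 to 1.74 FPKM in iPSC. SSC libraries hardly differed in this gene.

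Dazl and Ddx4, RNA-binding proteins of the germ line, remained measurable in iPSC. Dazl was at 194, 263 and 174 FPKM in SSC, 34.9, 42.3 and 36.2 FPKM in SSCiPSC and 17.4, 15.3 and 25.8 FPKM in fiPSC. Its 3 groups did not overlap, with an adjusted p of 0.205 (limma) in fiPSC against SSCiPSC. Ddx4 was at 58.8, 80.7 and 50.7 FPKM in SSC and at 7.42 to 15.4 FPKM in iPSC. Nanos3, an RNA-binding protein, fell by 2.05 and Crabp1, which binds retinoic acid, fell by 1.12 on the log2 scale in SSCiPSC against SSC.

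The 3 genes higher in SSCiPSC were Rarg, Rara and Sall4, and these were higher in fiPSC too. Rarg, which encodes a retinoic acid receptor, was at 5.28, 8.47 and 2.90 FPKM in SSC, 19.4, 55.9 and 21.2 FPKM in SSCiPSC and 42.8, 33.0 and 51.7 FPKM in fiPSC. Rarg rose by log2 2.26 (SE 0.49, adjusted p = 0.00918, limma) in SSCiPSC and by log2 2.80 (adjusted p = 0.00101, limma) in fiPSC. Sall4, a zinc finger factor of both cell types, rose by log2 1.26 (adjusted p = 0.0318, limma) and 1.07 (adjusted p = 0.0133, limma), and Rara by log2 0.61 (adjusted p = 0.0327, limma) and 0.47 (adjusted p = 0.0216, limma). After quantile normalization Sall4 stood at log2 0.66 (adjusted p = 0.162, limma) in SSCiPSC and 0.58 (adjusted p = 0.108, limma) in fiPSC. Rara stood at log2 0.44 (adjusted p = 0.0881, limma) and 0.37 (adjusted p = 0.0642, limma). The calls of Sall4 and Rara were thus lost in both comparisons, with the direction kept. With median-ratio scaling Rara also lost its call in SSCiPSC (log2 0.47, adjusted p = 0.0758, limma).

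Rec8 and Meioc, which act at meiosis, passed in fiPSC but not in SSCiPSC against SSC. Rec8 was at 2.16, 4.10 and 5.14 FPKM in SSC, 8.53, 5.65 and 7.34 FPKM in SSCiPSC and 6.78, 9.85 and 7.79 FPKM in fiPSC. All iPSC libraries were above all SSC libraries, and the iPSC groups overlapped. Between the iPSC neither gene passed (adjusted p = 0.802 for Rec8 and 0.783 for Meioc, limma). The call of Meioc in fiPSC (log2 0.78, adjusted p = 0.0404, limma) was lost with median-ratio scaling (adjusted p = 0.0507, limma). Lin28b, the paralog of Lin28a, and Ythdc2 passed in neither comparison with SSC.

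**Figure D4:**
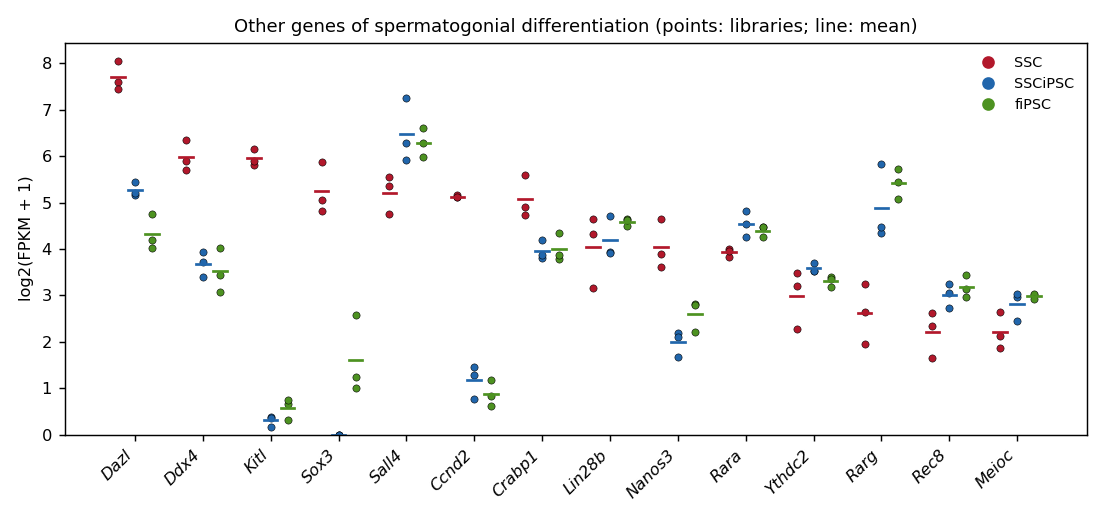
Log2(FPKM + 1) of the 14 other genes of spermatogonial differentiation in SSC (red), SSCiPSC (blue) and fiPSC (green), with points for libraries and lines for group means. Kitl and Ccnd2 lie below 2 in every iPSC library and above 5 in every SSC library, whereas Rarg is higher in every iPSC library than in SSC.

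A second list held 22 relatives and partners of the set, of which 16 had a locus and 14 were tested against SSC. In SSCiPSC 3 were higher, 9 lower and 2 did not pass, and in fiPSC 2 were higher, 9 lower and 3 did not pass. The median log2 fold change was -1.68 and -1.69, beside 0.11 and 0.17 over all loci, of which 24.1% and 23.7% were lower. At 1 locus per named gene the medians were 0.24 and 0.22, and 3463 of 12624 and 3665 of 12801 were lower. Of the lower genes, Csf1r, Dmrt2, Dmrta1 and Figla in both comparisons and Dmrt3 in SSCiPSC passed the filter through SSC only and so had to be lower, so the counts and medians are given as a description only. In fiPSC against SSCiPSC 0 of 8 tested passed with limma, and 1 of 8 had an unadjusted p below 0.05, beside 11.7% of all loci.

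Taf4b, a TFIID subunit of germ cells, and Taf9b, a variant of Taf9, were lower in iPSC as Taf7l was. Taf4b was at 33.8, 43.7 and 31.5 FPKM in SSC and at 9.63 to 14 FPKM in iPSC, and Taf9b at 39.7, 55.3 and 34.2 FPKM in SSC and 4.07 to 5.34 FPKM in iPSC. Taf7, the widely expressed counterpart of Taf7l, was at 72.6, 81.9 and 65.7 FPKM in SSC, 117, 97.2 and 91.6 FPKM in SSCiPSC and 78.7, 81.4 and 79.9 FPKM in fiPSC. SSC thus held more Taf7l than Taf7 per length in every library, and iPSC held far more Taf7 than Taf7l. Between groups the direction of Taf7 depended on the scaling: it was higher in SSCiPSC by log2 0.47 (adjusted p = 0.0388, limma) and, after quantile normalization, stood at -0.34 (adjusted p = 0.0918, limma). With median-ratio scaling it was 0.31 (adjusted p = 0.123, limma) and did not pass. In fiPSC it went from 0.13 (adjusted p = 0.367, limma) to -0.53 (adjusted p = 0.00869, limma) after quantile normalization.

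Of the other DM domain genes listed, Dmrta1, Dmrt2, Dmrt3 and Dmrta2 were below every SSC library in all iPSC libraries. Dmrta1 was at 10.3, 19.8 and 13.3 FPKM in SSC, 0 in all SSCiPSC libraries and at most 0.670 FPKM in fiPSC. Its locus is only 266 bases long, and these values stand for about 2, 10 and 2 fragments in SSC and at most about 1 in an iPSC library. Dmrt2, which neighbours Dmrt1 on chromosome 19, was at 14.7, 8.65 and 8.27 FPKM in SSC and at most 0.139 FPKM in iPSC. Dmrt3 was at 4.14, 5.97 and 2.94 FPKM in SSC and at 0.214 to 1.06 FPKM in iPSC. Dmrta2 was low throughout, at 1.45, 1.66 and 0.928 FPKM in SSC and at 0.0840 to 0.729 FPKM in iPSC, and was not tested. Dmrtc2 was not lower, at 0 to 3.08 FPKM in SSC and 2.74 to 4.20 FPKM in iPSC, without passing.

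Of the ubiquitin hydrolases related to Uchl1, Uchl3 and Uchl5 went the other way. Uchl3 was at 24.0, 25.4 and 34.9 FPKM in SSC, 141, 94.4 and 112 FPKM in SSCiPSC and 86.1, 112 and 81.2 FPKM in fiPSC. Uchl5 was at 18.9, 23.4 and 13.4 FPKM in SSC and 46.5 to 65.9 FPKM in iPSC. Among receptors related to Kit, Pdgfra was at 7.57, 7.08 and 8.15 FPKM in SSC and at no more than 1.23 FPKM in iPSC, and Csf1r, which macrophages express, was at 6.17, 1.89 and 25.2 FPKM in SSC. Csf1r followed the macrophage list to which it also belongs.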

How the data were processed

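Sorted SSC, SSCiPSC and fiPSC were profiled by paired-end RNA-seq (TruSeq Stranded mRNA kit), 3 libraries each. Per the labels, the authors' processing notes name Trimmomatic 0.32, TopHat2 2.0.9, Bowtie2 2.1.0, Cufflinks 2.2.1 and Cuffdiff. The authors deposited FPKM values, 1 per locus and library, and a summary of their Cuffdiff database, which was not used. The labels name mm9, but the loci end on GRCm38 genes: of loci with a strand whose ends lay within 300 bp of those of a gene, 97.7% had its strand.

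One locus with a blank value was left out. A locus took the name of a gene (GENCODE M21) when at least 50% of it lay inside that gene and its strand was not opposite, and 43081 loci were named this way. Whether the FPKM values were scaled between libraries is not given in the sources used here. Depth was estimated from the step between low FPKM values of loci of 600 to 6000 bp without strand, and fragments per gene from its exon bases in the locus less 155 bases. A count of 0 was taken to allow 3 fragments, which covers counting error only.

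Since FPKM values are not counts, limma 3.58.1 (lmFit, eBayes with a trend; R 4.3.3) was run on log2(FPKM + 1), a pseudocount of 1, for each pair of groups. It was tested on simulated data. Exact permutation tests used scipy 1.17.1. Alternatives were a pseudocount of 0.1, other filters and scalings, other fits, 1 locus per named gene, other loci of the same gene, and each library left out. Genes named are all 10 genes of the set, genes of the fixed lists (other differentiation genes, relatives, undifferentiated spermatogonia, germ line, Sertoli, Leydig, mast cell, macrophage, endothelial, peritubular myoid, fibroblast and pluripotency), and the 3 protein-coding genes nearest to each by Euclidean distance of log2(FPKM + 1) over 9 libraries. The set and the lists were chosen with earlier results of these data known.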

Additional observations from a re-analysis of the deposited data

How the results depend on the processing

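The 7 genes called against SSC kept their direction under every alternative tried, and of these 7 only Lin28a lost its call under some. For Sohlh1, whose direction the filter on low values fixed, this is no sign of stability. Of 152 alternative values in SSCiPSC against SSC 145 kept direction and side of the threshold, of 152 in fiPSC against SSC 146 did, and of 134 in fiPSC against SSCiPSC 130 did. Lin28a lost its call with quantile normalization and without SSC replicate 1 (adjusted p = 0.0523, limma), SSC replicate 3 (0.0734) or SSCiPSC replicate 3 (0.0579) in SSCiPSC, and without fiPSC replicate 1 (0.0617) or 3 (0.0557) in fiPSC. Stra8 passed without SSC replicate 2, and Dmrtb1 passed in fiPSC against SSC without SSC replicate 3 (log2 -1.20, adjusted p = 0.0336, limma).

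Among the 9 genes of the set, the values that changed sign were not called. Dmrtb1 in SSCiPSC against SSC was 0.35 with a pseudocount of 0.1, and leaving out 1 library gave -0.98 (SSC replicate 3) to 0.34 (SSC replicate 2). In fiPSC against SSC it ran from -1.20 (SSC replicate 3) to 0.12 (SSC replicate 2). In fiPSC against SSCiPSC, leaving out 1 library gave -0.00173 (without SSCiPSC replicate 1) to 0.30 for Dmrt1, -0.33 to 0.0207 (without SSCiPSC replicate 3) for Taf7l, and -0.40 to 0.19 (without SSCiPSC replicate 2) for Lin28a, which was 0.03 without fiPSC replicate 2. Dmrtb1, and Taf7l in fiPSC against SSCiPSC, gave no value where a mean of 5 FPKM was required. The mean level of Kit at its longer locus was 9.71 FPKM in SSC and 25.9 in fiPSC.

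Of all loci, 18396, 19680 and 23 passed in SSCiPSC against SSC, fiPSC against SSC and fiPSC against SSCiPSC. With a mean of at least 5 FPKM these were 10070, 10528 and 10, and with 1 locus per named gene 7994, 8403 and 11, with fewer loci tested in each. With all 9 libraries in 1 fit, 11 passed in fiPSC against SSCiPSC, and the cause was not tested. Leaving out 1 library gave 14539 to 20238, 15413 to 22511 and 6 to 20. The median log2 fold change of all loci, 0.11 and 0.17 against SSC, became -0.00349 with median-ratio scaling in SSCiPSC and 0.05 with quantile normalization in fiPSC.

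Same-numbered libraries did not deviate together (correlations of -0.24 to 0.02), so the replicate number was taken as a name only. With the replicate number as a block 16926, 17546 and 6 loci passed, and no gene of the set changed its call.

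Few fragments stood behind Stra8 in SSC replicates 1 and 3 and behind Dmrtb1 in SSC, and groups of 3 limit every comparison.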

Other observations

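Genes whose level over the 9 libraries was nearest to each of these genes were listed as a description, by Euclidean distance of log2(FPKM + 1). Sall4 was nearest to Lin28a at a distance of 0.432, and its high value in SSCiPSC replicate 2, 151 FPKM, stood beside the 149 FPKM of Lin28a. Nearest to Kit was Rcn1 (0.594), with means of 13.5, 56.4 and 29.0 FPKM in SSC, SSCiPSC and fiPSC. Nearest to Sohlh1 were Smpx (0.632) and the germ line gene Tdrd9 (0.740). Nearest to Taf7l was Axl (0.939), a receptor tyrosine kinase at 101, 0.747 and 1.15 FPKM in the 3 groups.

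The other nearest genes were Pim1 for Uchl1 (0.683), Spag5 for Sohlh2 (0.724), Akap13 for Dmrt1 (0.917), Pou4f1 for Dmrtb1 (0.694) and Dtd1 for Stra8 (1.27). The distances rest on 9 libraries in 3 groups, so genes with the same group means come out near each other.

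Among markers of undifferentiated spermatogonia, Etv5, a target of GDNF signalling, and Cdh1, the epithelial cadherin, were higher in both kinds of iPSC than in SSC, and Eomes, a T-box factor, was higher in SSCiPSC. Etv5 was at 38.8, 30.7 and 28.9 FPKM in SSC and at 94.0 to 143 FPKM in iPSC. Cdh1 was at 13.6, 7.92 and 9.32 FPKM in SSC and at 88.6 to 156 FPKM in iPSC. Eomes was at 4.10, 2.40 and 1.85 FPKM in SSC and at 4.49 to 6.73 FPKM in iPSC, with a log2 fold change of 0.94 (adjusted p = 0.0349, limma) in SSCiPSC and 0.68 (adjusted p = 0.0846, limma) in fiPSC. Over all loci 24.1% were lower in SSCiPSC and 23.7% in fiPSC, and at 1 locus per named gene 3463 of 12624 and 3665 of 12801. Of the 10 markers with a locus, the other 7 were lower in SSCiPSC and 6 were lower in fiPSC. Gfra1, Ret, Zbtb16 and Lhx1 among these passed the filter through SSC only and so had to be lower.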
